A study of Mus musculus with 28 samples.

Results

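Irgm1 knockout macrophages (Irgm1-KO) were set against wild-type macrophages (WT) in the first of 2 experiments of the series, 4 libraries of each, which are 8 of the 28 libraries in all. The members were taken by title, and every gene that passed a filter on low counts was tested, which left 13998 of the 15423 genes in the deposited table. Per the labels, the Irgm1-/- mice had been backcrossed to C57BL/6 and the WT mice were C57BL/6. Bone marrow was taken from mice of both sexes aged 2 to 4 months, and all 8 cultures were grown for 6 days in medium with 20% L929 cell-conditioned medium, a source of macrophage colony-stimulating factor, and 10% serum. The cells then spent 24 h without the conditioned medium. The labels do not say which animal gave which library, and the p-values thus reflect only how far these libraries spread, which may be technical. A further group of the same experiment (Irgm_IFNAR-KO, n = 4, from IFNAR/Irgm1-/- mice), whose cells lack the type I interferon receptor as well, entered the fit to estimate the spread. A second experiment on the same genotypes (Irgm1KO_control and WT_control, n = 4 each, no fenofibrate) was used to look at the same contrast in libraries that share none with the first.

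Irgm1 encodes a membrane-binding member of the immunity-related GTPases, a family of interferon-induced proteins that act on vacuoles holding microbes, on autophagy and on mitochondria. Type I interferons signal through the Ifnar1 and Ifnar2 chains and a factor complex that includes Stat2 and Irf9, which binds a promoter element called the interferon-stimulated response element and turns on many antiviral genes. Macrophages keep this pathway at a low tonic level at rest, and mice without Irgm1 are known for a raised type I interferon response. The comparison asked which transcripts change when Irgm1 is missing, with no microbe or cytokine added.

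Each Irgm1-KO library held 49.9 to 60.0 M counts and each WT library 48.7 to 70.5 M. Defining macrophage genes were high in every library: the receptor gene Csf1r had 2177, 2294, 1832 and 2055 counts per M (CPM) in Irgm1-KO libraries, against 2778, 1906, 2361 and 2405 CPM in WT libraries, and Cd68, an endosomal glycoprotein, averaged 977 ± 50.1 CPM in Irgm1-KO and 948 ± 38 CPM in WT (SD, n = 4 each). Of 10 macrophage markers 1 rose and 3 fell. The summed share of the macrophage markers was 1.04% to 1.64% of counts in Irgm1-KO libraries and 2.33% to 3.95% in WT libraries. Most of that gap came from a single member, the lysozyme gene Lyz2, whose values are given below. Of the marker lists of other cells, monocyte markers took 0.00979% to 0.023% in Irgm1-KO and 0.0259% to 0.0648% in WT, and all 6 were called, 3 higher and 3 lower. The 3 endothelial markers tested took 0.0111% to 0.0188% in Irgm1-KO and 0.00207% to 0.00342% in WT, with 2 called higher and 1 lower. Dendritic cell markers took 0.00292% to 0.00333% in Irgm1-KO and 0.00576% to 0.0074% in WT, and stromal markers 0.000114% to 0.000177% in Irgm1-KO and 0.000282% to 0.000789% in WT. The 8 neutrophil markers in the table made up 0.000592% to 0.000962% of counts in Irgm1-KO and 0.00164% to 0.00428% in WT, with 5 of 6 tested called lower and 0 higher, and the calprotectin genes, named after their values were seen, S100a8 and S100a9, at means of 2.77 and 2.8 CPM in Irgm1-KO and 11.5 and 12.4 CPM in WT. Mast cell and basophil markers took 0.000499% to 0.000782% in Irgm1-KO and 0.00013% to 0.000197% in WT, each list not given here took at most 0.0108% in any library, and no erythroid marker was tested. The summed ranges of none of these 6 lists overlapped between the groups, with the sums of endothelial and mast cell markers higher and the others lower in the knockout. Of the mast cell and basophil markers only 1 was tested, and it was called higher. Of 5 dendritic cell markers tested 1 was called higher and 2 lower, and of 3 stromal markers 0 were called higher and 1 lower. Osteoclast markers and the single natural killer cell marker also lay higher without overlap, and stem and progenitor markers lower. Of all tested genes 17.5% lay above and 17.5% below without overlap. Ccr2 made up most of the monocyte share in WT and Kdr most of the endothelial share in Irgm1-KO. The part of these lists in the results below was not tested. In bulk cultures, fewer cells of a type and less RNA per cell cannot be told apart. Libraries within each group varied mostly along a single component, with 88.7% of the variance inside groups over 9171 genes, and that component followed transcript length. A score of long minus short messages, in mean log2 units, stood at 0.625, 0.519, −0.617 and 0.288 in Irgm1-KO and at 0.92, −0.783, 0.267 and 0.331 in WT. The third Irgm1-KO library and the second WT library were thus rich in short messages and the first WT library in long ones, and the scores of the 2 genotypes overlapped.

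Irgm1 (ENSMUSG00000046879, chromosome 11) had 798, 839, 628 and 776 CPM in Irgm1-KO libraries, against 1290, 1189, 1339 and 1352 CPM in WT libraries. All 4 knockout libraries lay below all 4 WT libraries, though none lacked Irgm1 counts. The log2 fold change of Irgm1 was -0.77 (SE 0.102; adjusted p = 8.32e-05 by edgeR's quasi-likelihood test with Benjamini-Hochberg adjustment over the 13998 genes, as for every adjusted p below). Gene-level counts may include exons outside a deletion, so the counts left in knockout cells say nothing of an intact message. Of the 20 tested genes nearest to Irgm1, 10 on each side, 5 were called higher and 3 lower.

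In all, 2767 genes (19.8%) rose and 2893 (20.7%) fell in Irgm1-KO, together 40.4% of those tested at an adjusted p under 0.05, and 837 rose and 1007 fell by more than 2-fold. For 2455 genes all 4 knockout libraries lay above all 4 WT libraries, and for 2444 they lay below. Shares this large are the background for each list below, which is read against 19.8% higher and 20.7% lower. With the length score as a covariate, an alternative chosen after seeing the data, 33.1% were higher and 34.1% lower, and most lists gained calls with it. The genes with the largest rises among those reaching 5 CPM without overlap were led by Apol9a and Apol9b, apolipoprotein L genes that interferon induces, by the heat-shock genes Hspa1b and Hspa1a, by the apoptotic-cell receptor gene Timd4 and by Slfn4 of the Schlafen family. The largest falls were those of Hpgd, which degrades prostaglandins, of the metalloprotease gene Adam19, of Plxdc2 and Abca9, and of the fractalkine receptor gene Cx3cr1. By number of reads, the ferritin heavy chain gene Fth1 gained most, at 10611 ± 693 CPM in Irgm1-KO and 5249 ± 644 CPM in WT, followed by complement C3. Lysozyme, Lyz2, lost most, at 5556 ± 2291 CPM in Irgm1-KO against 23184 ± 8751 CPM in WT (SD, n = 4 each).

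**Figure D1:**
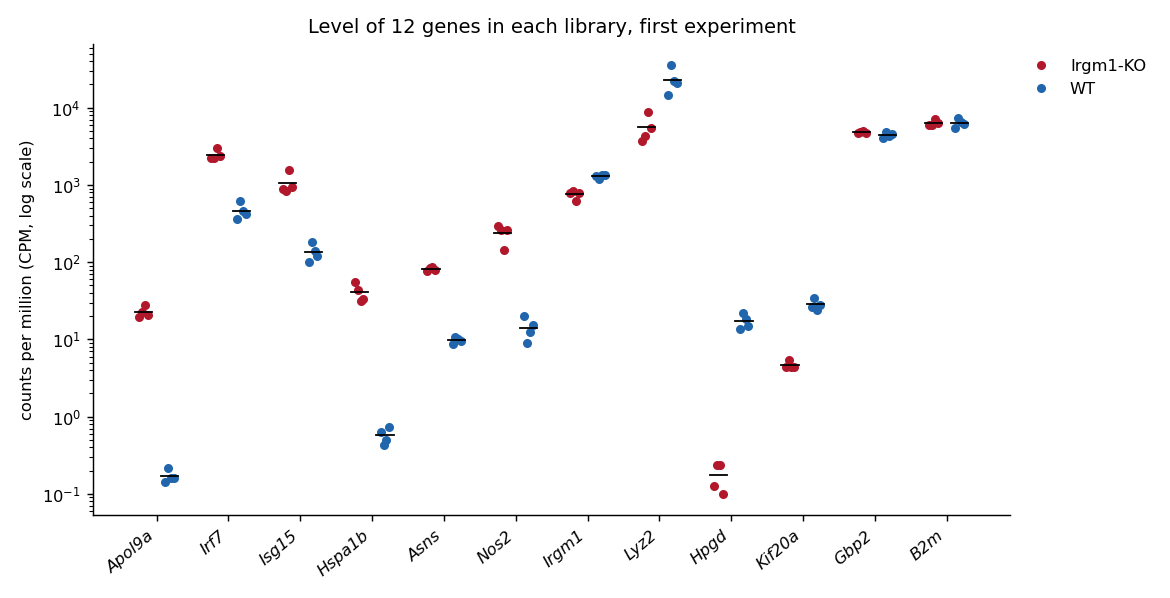
Counts per M (CPM, log axis) of 12 genes in each library of the first experiment, with the 4 Irgm1-KO libraries left of the 4 WT libraries and a bar at each group's mean. For the first 6 genes every Irgm1-KO point lies above every WT point, for the next 4 every Irgm1-KO point lies below, and for Gbp2 and B2m the groups overlap.

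Interferon beta and most antiviral effector genes rose, while their receptor genes did not. Interferon beta itself, the product of Ifnb1, stood at 1.4, 1.73, 3.79 and 1.5 CPM in Irgm1-KO libraries and at 0.0814, 0.217, 0.0896 and 0.102 CPM in WT libraries. All knockout libraries were higher, the third most of all, and the level was low in both groups. Ifnb1 rose (log2 fold change 4.12, SE 0.52, adjusted p = 5.28e-05). Of the 22 ligand and receptor genes on the list 5 could be tested, and Ifnb1 was the only riser among them: the receptor chain Ifnar2 fell by 0.21 on the log2 scale, a call lost without a scaling factor (adjusted p = 0.0881), and Ifngr1, the interferon gamma receptor chain, fell by 0.75, while Ifnar1 at 127, 125, 112 and 120 CPM in Irgm1-KO and 139, 128, 136 and 141 CPM in WT was not called (adjusted p = 0.51), though its groups did not overlap. The spread in that fit includes the Irgm_IFNAR-KO libraries, whose cells lack this receptor. With the 8 Irgm1-KO and WT libraries alone in the fit, Ifnar1 had an adjusted p of 0.133 at the same log2 fold change, -0.17.

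Among the factors that carry the signal, 9 of 20 tested rose and 4 fell. Irf7, which drives interferon genes, had 2250, 2237, 2996 and 2344 CPM in Irgm1-KO libraries, against 360, 612, 461 and 416 CPM in WT libraries. Every knockout library was above every WT library, by a fitted 5.32-fold (log2 fold change 2.41, SE 0.164, adjusted p = 3.51e-07). Irf5 (log2 fold change 0.71) and Batf2 (0.64) rose too. Irf8 and Irf4, lineage factors of myeloid cells, fell, with Irf8 at 541 ± 39 CPM in Irgm1-KO and 838 ± 63.2 CPM in WT and Irf4 at 0.432 CPM in Irgm1-KO and 1.74 CPM in WT. Jak1 and Stat3 were not called. Of the brakes on the pathway, 9 of 23 rose and 4 fell. Usp18, which removes ISG15 and blocks the receptor, rose 6.76-fold, Adar, the RNA-editing enzyme that masks self RNA, rose 2.13-fold, and the feedback inhibitor Socs3 fell by 1.17 on the log2 scale.

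Effector genes rose almost as a body. Of 38 tested antiviral effectors 33 rose and 4 fell, with a median log2 fold change of 1.53 against −0.02 over all tested genes. Summed, they took 2.07, 2.14, 2.48 and 2.16% of counts in the 4 Irgm1-KO libraries, against 0.702, 0.768, 0.803 and 0.723% in the 4 WT libraries. No knockout library came near the WT range. Oasl1, an oligoadenylate synthetase-like brake on Irf7 translation, stood at 775, 754, 649 and 676 CPM in Irgm1-KO and 36.3, 36.5, 37.9 and 32.2 CPM in WT (log2 fold change 4.32, SE 0.112, adjusted p = 5.72e-10). Rsad2, which makes an antiviral nucleotide, stood at 2173, 2026, 1905 and 1859 CPM in Irgm1-KO and 276, 202, 252 and 259 CPM in WT (log2 fold change 3.01, SE 0.117, adjusted p = 8.12e-09). Mx1 rose 12.2-fold, Cmpk2 5.39-fold, the exonuclease gene Isg20 21-fold and Ifit2 2.92-fold. Isg15, the ubiquitin-like modifier, had 880, 834, 1577 and 940 CPM in Irgm1-KO libraries, against 101, 183, 139 and 121 CPM in WT libraries. The third Irgm1-KO library was the highest, and the groups did not overlap (log2 fold change 2.96, SE 0.26, adjusted p = 2.87e-06). Of 8 conjugation genes 7 rose, with the ligase Herc6 and the activating enzyme Uba7 among them, and Herc4 fell.

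Families that interferon induces did not move alike. Of the p200 genes and Aim2, cytosolic and nuclear DNA-binding proteins, 11 of 12 rose, among them Ifi205 (7.23-fold) and Ifi213 (4.9-fold), and Aim2 itself was not called. Of the Schlafens 7 of 8 rose, with Slfn1 at 402 ± 51.3 CPM in Irgm1-KO and 72.3 ± 12.6 CPM in WT. Of the interferon-inducible PARPs 8 of 9 rose and Parp8 fell. In contrast, of 12 guanylate-binding protein genes only Gbp3 (0.29 on the log2 scale) and Gbp4 (0.30) rose and Gbp2b fell (-1.04); with the length score as a covariate 5 were called higher. The most abundant of them, Gbp2, had 4667, 4917, 4927 and 4658 CPM in Irgm1-KO libraries, against 4010, 4838, 4268 and 4550 CPM in WT libraries. The groups overlapped and Gbp2 was not called (adjusted p = 0.258). The other immunity-related GTPases were as mixed: Tgtp1 (0.67 on the log2 scale) and Igtp (0.32) rose, Iigp1 fell (-0.65), and Ifi47 at 763 CPM in Irgm1-KO and 1000 CPM in WT was not called. Members of these families, the Trim30 genes and the pairs Apol9a and Apol9b share long near-identical stretches, so how reads were split between copies is uncertain.

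The promoters of 4 of the genes above are printed to show the element that the interferon factors bind. The sequences are RefSeq's for build GRCm38.p6, a build other than the GRCm39 of the files, read 5′ to 3′ along the gene and ending at or before the annotated start. Capitals mark every match to the response element core GAAANNGAA on either strand, with overlapping matches run together.
Irgm1: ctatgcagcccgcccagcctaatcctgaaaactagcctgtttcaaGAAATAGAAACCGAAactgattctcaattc
Isg15: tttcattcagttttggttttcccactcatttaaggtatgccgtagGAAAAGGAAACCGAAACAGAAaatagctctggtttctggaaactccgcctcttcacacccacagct
Rsad2: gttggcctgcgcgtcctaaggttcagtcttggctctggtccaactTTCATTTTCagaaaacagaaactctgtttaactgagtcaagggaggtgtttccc
Apol9a: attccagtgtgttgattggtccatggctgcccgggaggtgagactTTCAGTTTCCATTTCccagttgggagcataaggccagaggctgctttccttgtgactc
The stretches lie at chr11:48871421-48871495, minus strand (Irgm1), at chr4:156200831-156200941, minus strand (Isg15), at chr12:26456518-26456616, minus strand (Rsad2) and at chr15:77411081-77411183, minus strand (Apol9a). Within 250 bases before to 50 after the start, 18 of the 29 antiviral effectors with a promoter held the core, and 7.72% of all 9764 tested genes with a promoter did. So did 5 of 5 guanylate-binding protein genes, most of which were not called. The share was 10.2% among genes called higher, 6.76% among genes called lower and 15.6% among those called higher by more than 4-fold. A match is a description of letters and shows no binding.

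Genes that sense nucleic acids rose with the effectors. Of 24 sensor and adaptor genes 18 rose and 0 fell, among them the RNA sensor Ifih1 (3.37-fold), the endosomal receptor Tlr3 (2.81-fold) and the adaptor Tank (2.2-fold). Tlr13 and the chaperone Unc93b1 were not called. Without the second WT library 1 sensor gene was called lower. Of 19 surface Toll-like receptor and adaptor genes 2 rose and 7 fell. The coreceptor Cd14 had 88.8, 92.1, 106 and 97.1 CPM in Irgm1-KO libraries, against 184, 211, 192 and 189 CPM in WT libraries, and fell by 1.02 on the log2 scale with no overlap. Ly86 fell by 1.09, and Tlr4 was not called.

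Chemokine genes for monocytes and T cells were among the large rises. Of 11 tested CC chemokine genes 6 rose and 2 fell, with 1 lower without the second or the fourth Irgm1-KO library or the third WT library. Ccl5 had 874, 815, 1005 and 843 CPM in Irgm1-KO libraries, against 90.7, 95.7, 91.5 and 100 CPM in WT libraries, and Ccl2 had 104, 101, 112 and 110 CPM in Irgm1-KO and 19.6, 20.1, 18.1 and 22.6 CPM in WT. The groups lay far apart for both (3.23 and 2.41 on the log2 scale). Ccl7 rose 8.64-fold, Ccl6 fell by 1.41 on the log2 scale, and Ccl9, at 213 CPM in Irgm1-KO and 266 CPM in WT, was not called. The ligands of the receptor Cxcr3 all rose: Cxcl9 to 2715 ± 205 CPM in Irgm1-KO against 741 ± 83.2 CPM in WT, Cxcl10 2.28-fold and Cxcl11 23.6-fold. The stromal chemokine Cxcl12 and Cx3cl1 fell. Of 23 chemokine and chemoattractant receptor genes 7 rose and 7 fell. Fpr2, a formyl peptide receptor, rose 8.6-fold, and Cx3cr1 stood at 0.564 CPM in Irgm1-KO against 8.08 CPM in WT. The monocyte receptor gene Ccr2, picked from the marker lists after its values were seen, had 67.1, 40.8, 132 and 60.2 CPM in Irgm1-KO libraries and 224, 466, 557 and 299 CPM in WT libraries, with no overlap (log2 fold change -2.36).

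Cytokine ligand and receptor genes were called in both directions. Of 22 tested interleukin and TNF family ligand genes 13 rose and 4 fell, and of 32 cytokine receptor genes 10 rose and 8 fell. Il1rn, the interleukin-1 receptor antagonist, had 142, 128, 99.2 and 115 CPM in Irgm1-KO libraries, against 13.6, 15, 15.4 and 17.1 CPM in WT libraries. It rose in all 4 knockout libraries relative to any WT library, while Il1b, its agonist, fell at a low level, with 0.951 CPM in Irgm1-KO and 2.5 CPM in WT. Csf1 and Tnfsf15 rose, Tnfsf14 and Il16 fell, and Il10 was not called. Among receptors Il12rb1 and Il15ra rose, and Il4ra, Lifr and Il18rap fell. Csf1r was not called.

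NF-kB subunit and feedback genes were called higher in 14 of 26 cases and lower in 1, led by the adaptor Traf1 (4.35-fold) and the inhibitors Nfkbie and Nfkbib, with Nfkb1 and Tnfaip2 not called. Without the second WT library 4 were called lower, and without any other single library 0 were. Of inflammasome and lytic death genes 9 of 20 rose, among them Mlkl, the executioner of necroptosis (2.22-fold), and Nek7 fell. Of 15 nitric oxide, arginine and itaconate genes 6 rose and 2 fell. Nos2, inducible nitric oxide synthase, had 292, 264, 146 and 258 CPM in Irgm1-KO libraries, against 20, 9.02, 12.4 and 15.3 CPM in WT libraries. The third Irgm1-KO library was the lowest of its group and still far above every WT library (log2 fold change 4.08, SE 0.306, adjusted p = 7.73e-07). Acod1, which makes itaconate, had 1539, 1394, 1222 and 1460 CPM in Irgm1-KO libraries and 290, 253, 239 and 264 CPM in WT libraries (log2 fold change 2.42, SE 0.0967, adjusted p = 8.41e-09). Ass1, which recycles arginine for Nos2, rose 4.6-fold, and the arginine importer Slc7a2 fell by 1.58 on the log2 scale. Arg1, named after its values were seen, was at 0.186 CPM in Irgm1-KO and 0.161 CPM in WT and was not called. Of complement genes 7 of 18 rose and 2 fell, with 5 lower without the third Irgm1-KO library, 4 without the first WT library and 1 without any other library. C3 had 5224, 5239, 3660 and 4923 CPM in Irgm1-KO libraries, against 1183, 565, 913 and 936 CPM in WT libraries, and rose 5.3-fold without overlap. Cfb, of the alternative pathway, rose 7.75-fold. With the length score as a covariate 7 complement genes were higher and 7 lower.

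**Figure D2:**
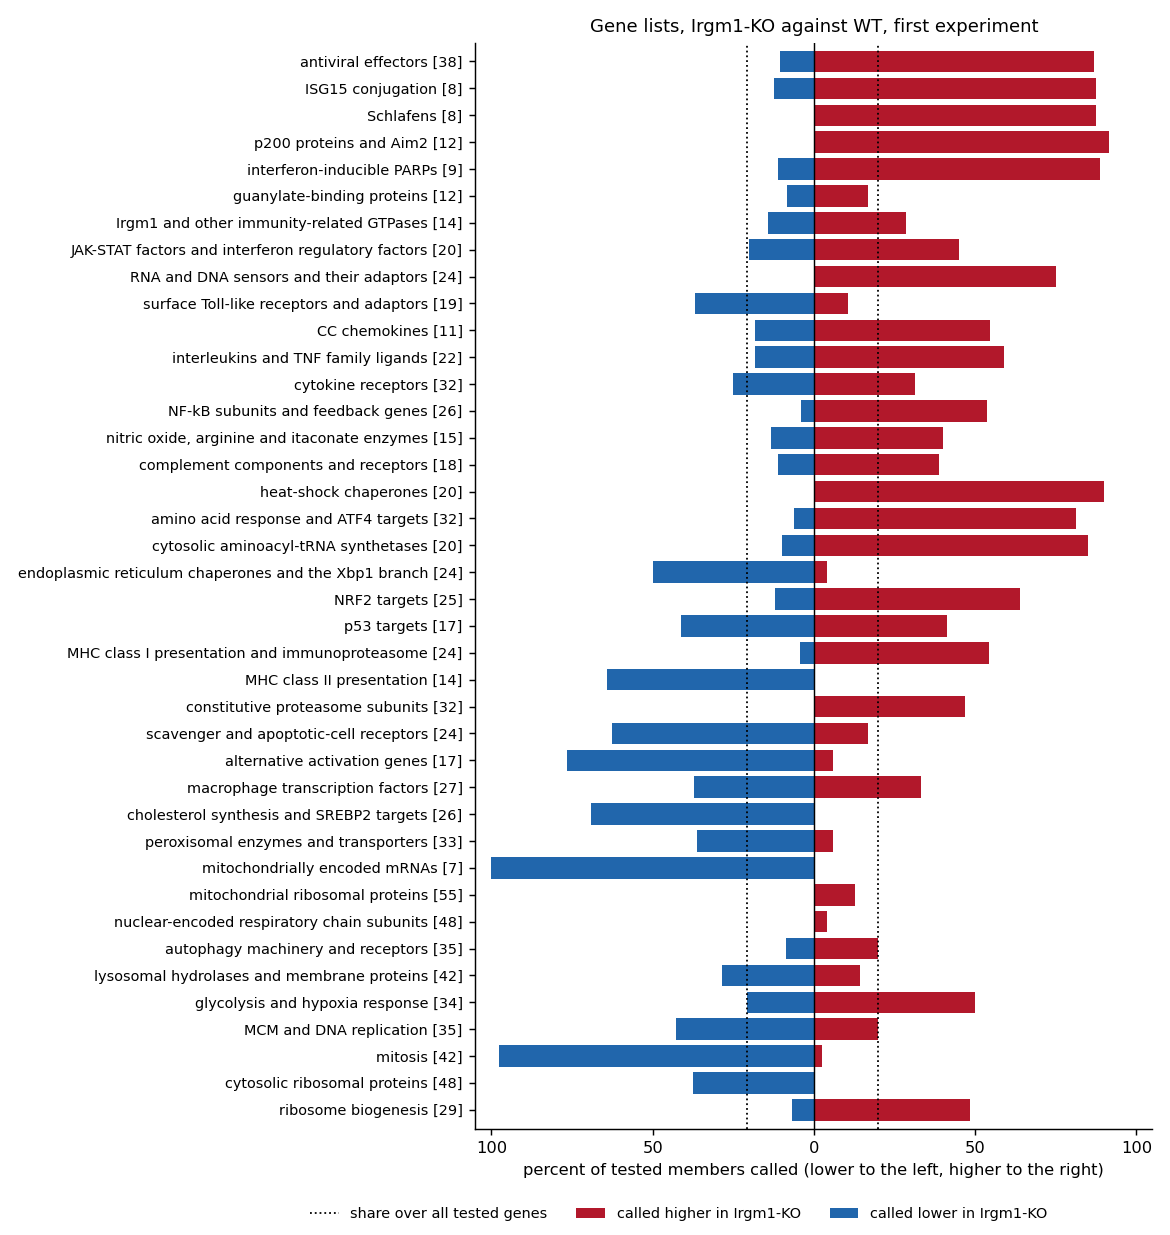
Percent of the tested members of 40 gene lists called higher (right of 0) and lower (left of 0) in Irgm1-KO against WT, with the number tested in brackets. Dotted lines mark the shares over all tested genes, 19.8% higher and 20.7% lower; antiviral effectors, heat-shock chaperones and ATF4 targets run far to the right, and mitosis genes, mitochondrially encoded mRNAs and cholesterol genes far to the left.

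Most stress chaperone genes of the cytosol rose, and those of the endoplasmic reticulum fell more often than they rose. Of 20 heat-shock chaperone genes 18 rose and 0 fell (median log2 fold change 0.99), and together they took 0.752, 0.81, 0.91 and 0.792% of counts in Irgm1-KO libraries, against 0.356, 0.465, 0.465 and 0.41% in WT libraries. The groups did not overlap, the lowest knockout library standing well above the highest WT library. Hspa1b, an inducible HSP70 gene, had 55.4, 43.9, 31.9 and 33.8 CPM in Irgm1-KO libraries and 0.631, 0.434, 0.502 and 0.726 CPM in WT libraries (log2 fold change 6.14, SE 0.234, adjusted p = 8.12e-09). Its near-identical neighbour Hspa1a rose 49-fold, and reads of the pair may not be told apart. Hsph1, a nucleotide exchange factor of HSP70, rose 3.76-fold and Dnaja1, a cochaperone named after its values were seen, 3.2-fold. Cryab and the mitochondrial cochaperonin gene Hspe1 were not called. Of 24 endoplasmic reticulum chaperone and Xbp1 branch genes 1 rose and 12 fell. Dnajc3 fell by 1.05 on the log2 scale, Herpud1 by 0.84 and Derl3 by 2.32, and Hspa5, at 2004 ± 547 CPM in Irgm1-KO and 2299 ± 548 CPM in WT, was not called. The count of falls was 7 without the first, the second or the fourth Irgm1-KO library, and the count of rises was 0 without the third Irgm1-KO library or the first, the third or the fourth WT library.

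Amino acid response genes under the factor ATF4, whose translation the integrated stress response raises, rose as a group. Of 32 tested 26 rose and 2 fell, with a median log2 fold change of 1.82. Asns, asparagine synthetase, had 77.6, 83, 85.8 and 79 CPM in Irgm1-KO libraries, against 8.61, 10.6, 10.2 and 9.57 CPM in WT libraries. The knockout libraries were close to each other and far above WT (log2 fold change 3.06, SE 0.106, adjusted p = 4.38e-09). Trib3, a pseudokinase that damps ATF4, had 33.8, 38.6, 41.5 and 40.1 CPM in Irgm1-KO and 2, 2.85, 3.03 and 2.03 CPM in WT (log2 fold change 3.96, SE 0.156, adjusted p = 8.41e-09). Atf5 rose 4.66-fold and the leucine carrier gene Slc7a5 16.7-fold, while Slc38a2 and Slc1a5 were not called and Ddit4 fell. Cytosolic tRNA synthetase genes rose in 17 of 20 cases. Aars had 352 ± 42.1 CPM in Irgm1-KO and 96.5 ± 10.3 CPM in WT, Cars rose 3.48-fold and Yars 1.91-fold. The exceptions were Qars and Wars, of which Wars is also known as an interferon gamma-induced gene: it had 433, 448, 405 and 442 CPM in Irgm1-KO and 655, 598, 682 and 641 CPM in WT and fell by 0.58 on the log2 scale.

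Promoter stretches of 2 chaperone genes and 2 amino acid response genes show the elements that heat-shock factor and ATF4 are known to bind. Capitals mark the heat-shock element core GAANNTTC in Hspa1b and Dnaja1 and the amino acid response element TGATGNAA, on either strand, in Asns and Aars.
Hspa1b: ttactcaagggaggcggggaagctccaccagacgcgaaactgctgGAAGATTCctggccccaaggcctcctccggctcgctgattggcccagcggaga
Dnaja1: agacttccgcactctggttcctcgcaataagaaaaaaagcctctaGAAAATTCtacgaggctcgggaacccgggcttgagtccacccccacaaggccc
Asns: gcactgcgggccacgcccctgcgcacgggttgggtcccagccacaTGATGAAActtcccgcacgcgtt
Aars: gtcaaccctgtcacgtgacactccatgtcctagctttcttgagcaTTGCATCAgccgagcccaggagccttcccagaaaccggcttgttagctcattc
They lie, in build GRCm38.p6, at chr17:34959290-34959387, minus strand (Hspa1b), at chr4:40722299-40722396, plus strand (Dnaja1), at chr6:7693210-7693277, minus strand (Asns) and at chr8:111033685-111033782, plus strand (Aars). The heat-shock core was found in 7 of 14 chaperone promoters and 5.83% of all tested promoters, and the amino acid response element in 8 of 28 ATF4 target promoters, 5 of 12 tRNA synthetase promoters and 2.28% of all. Among genes called higher by more than 4-fold the shares were 10.6% and 5.05%, and among those called lower by more than 4-fold 7.18% and 2.21%. In a window of 150 bases before the start the heat-shock core stood in 3.21% of genes called higher by more than 4-fold, 4.97% of those called lower by more than 4-fold and 2.67% of all, so the order of the 2 sets was the other way round, and the amino acid response element in 2.75%, 2.21% and 1.2%.

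Targets of NRF2, which answers oxidants and electrophiles, rose in 16 of 25 cases and fell in 3. Sqstm1, an autophagy receptor and NRF2 target, had 1224, 1278, 1111 and 1241 CPM in Irgm1-KO libraries, against 380, 399, 362 and 385 CPM in WT libraries, and rose 3.18-fold without overlap. Hmox1, heme oxygenase, and Srxn1 rose 2.19-fold and 2.11-fold. Ephx1, an epoxide hydrolase, and Mgst1 fell, and Ftl1 and Tkt were not called. The peroxiredoxin gene Prdx1 rose to 2541 ± 341 CPM in Irgm1-KO against 887 ± 267 CPM in WT, and Sod2, the mitochondrial superoxide dismutase, rose 2.77-fold. Genes of the p53 list split evenly, with 7 higher and 7 lower of 17: Mdm2 and Cdkn1a rose, Sesn1 and Trp53inp1 fell.

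Class I and class II antigen presentation moved in opposite directions. Of 24 class I and immunoproteasome genes 13 rose and 1 fell. H2-K1 had 4211, 4312, 4857 and 4501 CPM in Irgm1-KO libraries, against 2709, 2868, 2918 and 2738 CPM in WT libraries. The groups did not overlap, and the fold was 1.59 (adjusted p = 1.29e-05). H2-Q4, H2-Q6 and H2-Q7 rose more, but H2-Q genes are near-identical copies and their split is uncertain, and B2m at 6365 ± 605 CPM in Irgm1-KO and 6356 ± 806 CPM in WT was not called. Of 14 class II genes 0 rose and 9 fell. H2-Eb1 fell by 0.67 on the log2 scale and Cd74, the invariant chain, by 0.34, with H2-Ab1 not called. Without the second Irgm1-KO library 5 of these genes were called lower. Of 32 constitutive proteasome subunit genes 15 rose and 0 fell, with Psmd11 at 121 ± 2.52 CPM in Irgm1-KO and 67.3 ± 2 CPM in WT. Their summed share was 0.492, 0.545, 0.774 and 0.595% in Irgm1-KO libraries and 0.313, 0.538, 0.426 and 0.381% in WT libraries. The second WT library lay above the first Irgm1-KO library, so the sums overlapped although single members were called. With the length score as a covariate, chosen after seeing the data, 32 of the 32 subunit genes were called higher and 0 lower.

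Macrophage identity genes did not move as a block. Lyz2 had 3710, 4248, 8813 and 5450 CPM in Irgm1-KO libraries, against 14490, 35330, 21950 and 20960 CPM in WT libraries. The highest knockout library held less than the lowest WT library, and the fall was 4.17-fold (log2 fold change -2.06, SE 0.312, adjusted p = 0.000217). Adgre1, which encodes F4/80 and was named after its values were seen, fell by 0.67 on the log2 scale. Selenop, a secreted selenoprotein, fell to 517 ± 181 CPM in Irgm1-KO against 2803 ± 673 CPM in WT, and Apoe to 373 ± 54.7 CPM in Irgm1-KO against 1482 ± 188 CPM in WT. Of Fc receptor and related genes 7 rose and 7 fell of 22. Fcgr3 had 320, 361, 478 and 395 CPM in Irgm1-KO libraries, against 1143, 1802, 1413 and 1451 CPM in WT libraries, and fell 3.74-fold without overlap. The inhibitory Fcgr2b fell with it, Fcgr1 was not called, and the mycobacterial glycolipid receptor gene Clec4e rose 7.5-fold. Of 24 scavenger and apoptotic-cell receptor genes 15 fell and 4 rose. The risers were led by Timd4, with 12.2, 18.5, 8.92 and 18 CPM in Irgm1-KO and 0.204, 0.304, 0.179 and 0.421 CPM in WT, and by the related kinases Axl (2.01-fold) and Mertk (1.77-fold), while Pros1, a ligand that bridges dying cells to these kinases, fell by 3.05 on the log2 scale. Scarb1 and Scarb2 fell and Cd68 was not called.

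Genes of alternative activation, the program that interleukin-4 drives, fell in 13 of 17 tested cases and rose in 1. Il4ra, the receptor chain for that cytokine, had 177, 188, 189 and 190 CPM in Irgm1-KO libraries, against 460, 391, 457 and 431 CPM in WT libraries, with no overlap (log2 fold change -1.22, SE 0.0773, adjusted p = 1.63e-07). Cd163, a hemoglobin scavenger receptor, fell at a low level, and the transglutaminase gene Tgm2 was the riser. Of 27 macrophage transcription factors 9 rose and 10 fell: Nr1h3, the LXR alpha gene, rose 3.46-fold, Cebpb rose and Cebpa fell by 1.55 on the log2 scale. Maf and Zeb2 were not called. Of immediate-early factors 10 rose and 9 fell of 25, with Klf4 up 5.44-fold and Egr3 down by 2.22 on the log2 scale. Of integrin and adhesion genes 5 of 25 rose, among them Icam1 and Itga5, and 11 fell, among them Itga1 and Itgb5. Kdr, a vascular endothelial growth factor receptor gene from the endothelial marker list that was named after its values were seen, had 196, 170, 109 and 167 CPM in Irgm1-KO libraries and 22.1, 11.2, 16.7 and 14.9 CPM in WT libraries. It rose 9.9-fold without overlap, while the endothelial gene Pecam1 fell by 1.91 on the log2 scale. Of the secreted growth factors and carriers Inhba rose 8.55-fold, and Igf1 and Igfbp4 fell by 1.31 and 2.99.

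Sterol synthesis genes fell. Of 26 cholesterol synthesis and SREBP2 target genes 0 rose and 18 fell, and their summed share was 0.047, 0.0512, 0.0484 and 0.0534% of counts in Irgm1-KO libraries, against 0.0763, 0.0691, 0.0715 and 0.0727% in WT libraries. The groups did not overlap. Stard4, a sterol carrier, had 3.52, 4.65, 3.6 and 3.81 CPM in Irgm1-KO libraries and 23.4, 20.5, 19.5 and 23.8 CPM in WT libraries (log2 fold change -2.48, SE 0.103, adjusted p = 1.01e-08). Every knockout library was below every WT library, and Sqle, squalene epoxidase, fell by 1.58 on the log2 scale. Ch25h, an interferon-induced enzyme that makes 25-hydroxycholesterol, had 176, 151, 137 and 157 CPM in Irgm1-KO libraries, against 25.2, 25.3, 27.9 and 27.1 CPM in WT libraries, and rose 5.88-fold. Among efflux and LXR target genes Apoe, Pltp and Cyp27a1 fell and Abcg1 and Npc2 were not called. Acsl1, an acyl-CoA synthetase, rose 4.65-fold, while Fads2, Elovl6 and Lpin1 fell. Hpgd had 0.127, 0.236, 0.237 and 0.0998 CPM in Irgm1-KO libraries, against 13.8, 21.8, 18.3 and 15 CPM in WT libraries. It was near 0 in every knockout library and not in any WT library (log2 fold change -6.59, SE 0.255, adjusted p = 8.12e-09). The inducible cyclooxygenase gene Ptgs2 rose 3.72-fold, and Ptgs1 and Alox5 fell by 1.85 and 2.41 on the log2 scale.

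Peroxisomal enzyme genes fell more often than they rose, and the tested mitochondrially encoded mRNAs all fell. Of 33 peroxisomal enzyme and transporter genes 12 fell and 2 rose, with Abcd2, an importer of very long chain acyl groups, down by 1.90 on the log2 scale and Idh1 by 0.92. Cat, catalase, at 206 ± 12 CPM in Irgm1-KO and 201 ± 3.66 CPM in WT, was not called. Of 18 peroxins 4 rose, among them Pex16 (2.58-fold), and 1 fell. The fall was not called without the fourth Irgm1-KO library, and 2 peroxins were called higher without the first or the second Irgm1-KO library or the second or the fourth WT library. Of the 13 mitochondrially encoded mRNAs on the list only 7 were in the deposited table, and all 7 were tested and fell. These 7 took 0.485, 0.439, 0.486 and 0.487% of counts in Irgm1-KO libraries, against 1.31, 1.17, 1.33 and 1.18% in WT libraries. The groups were far apart and each was tight. The mt-Cytb message had 324, 271, 264 and 242 CPM in Irgm1-KO and 1188, 1198, 1095 and 1096 CPM in WT (log2 fold change -2.06, SE 0.0907, adjusted p = 1.47e-08). Of 48 nuclear genes of the respiratory chain 2 rose and 0 fell, and Cycs, cytochrome c, rose 2-fold. These counts depended on the libraries and on the fit: 7 were called lower without the third Irgm1-KO library and 3 without the first WT library, 5 were called higher without the second WT library, 18 were higher and 17 lower with the length score as a covariate, and 3 were higher and 8 lower without the 3 libraries of extreme length score, which are the third Irgm1-KO and the first and second WT libraries. Of 30 genes that copy mitochondrial DNA or handle its RNA 12 rose and 4 fell: Pnpt1, an exonuclease of mitochondrial RNA that interferon induces in human cells, had 89.1, 87.6, 112 and 84.2 CPM in Irgm1-KO and 31.2, 47.8, 42.6 and 40.6 CPM in WT and rose 2.3-fold, and the polymerase subunit gene Polg2 fell. Mitochondrial ribosomal protein genes were called in 7 of 55 cases, all higher in this fit, and 13 were higher without the second WT library. Falls among them were called in other fits, 2 without the third Irgm1-KO library and 1 without the first WT library. With the length score as a covariate 31 were higher and 12 lower, and without the 3 libraries of extreme length score 8 and 4.

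Of 35 autophagy genes 7 rose and 3 fell, with Tax1bp1 and Atg16l1 higher and the kinase gene Ulk2 and the LC3 gene Map1lc3b lower. Without the second WT library 5 autophagy genes were called lower. With the length score as a covariate 12 were higher and 12 lower, and in the second experiment 7 were higher and 13 lower of 35, where 27.3% of all genes rose and 26.1% fell. Pink1, a kinase that marks damaged mitochondria, had 15.7, 16.8, 17 and 16.4 CPM in Irgm1-KO libraries, against 53.5, 47.3, 56.7 and 52.5 CPM in WT libraries. It fell by 1.67 on the log2 scale without overlap, and the mitophagy receptor gene Fundc1 fell by 0.75. Of 42 lysosomal genes 6 rose and 12 fell: Ctsz rose 2.17-fold, Ctsf, Galc and Gusb fell, and Psap and Ctsc were not called. The proton pump subunit gene Tcirg1 rose 2-fold. In metabolism, 17 of 34 glycolysis and hypoxia genes were called higher and 7 lower, with the glucose carrier Slc2a1 and the enolase gene Eno1 higher and Aldoc and Ndrg1 lower, and with Ldha not called.

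Mitosis genes fell with a single exception. Of 42 mitosis genes 41 fell and 1 rose, with a median log2 fold change of -1.9, and their summed share was 0.041, 0.0461, 0.0395 and 0.0444% of counts in Irgm1-KO libraries, against 0.121, 0.112, 0.0964 and 0.109% in WT libraries. The ranges did not meet. Kif20a, a kinesin of the spindle midzone, had 4.37, 5.42, 4.35 and 4.36 CPM in Irgm1-KO and 26.6, 34.9, 24.2 and 27.7 CPM in WT (log2 fold change -2.62, SE 0.155, adjusted p = 1.12e-07). The exception was Tpx2, which activates the Aurora A kinase: it had 150, 145, 131 and 133 CPM in Irgm1-KO libraries, against 40.7, 35.3, 30.4 and 38.7 CPM in WT libraries, and rose 3.86-fold without overlap. DNA replication genes were split, with 7 higher and 15 lower of 35, and with 4 higher without the third WT library. Rrm2, the ribonucleotide reductase subunit, had 3.67, 4.88, 3.44 and 3.88 CPM in Irgm1-KO and 25.6, 30.4, 19.2 and 24 CPM in WT and fell by 2.64 on the log2 scale, and Pcna and Mcm5 were not called. Of 26 cyclin, kinase and inhibitor genes 9 rose and 9 fell. The G1 cyclin genes Ccnd1, Ccnd2 and Ccne1 rose by 0.96, 1.66 and 1.67 on the log2 scale, while Foxm1, the factor that drives mitosis genes, fell by 1.73. Of DNA repair genes 14 of 28 fell, Neil3 among them, and 2 rose, with Fanca up 3.16-fold. Without the fourth WT library 1 repair gene was called higher.

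Promoters of 2 mitosis genes that fell show the cell cycle homology region, an element through which such genes are known to be silenced outside the dividing state. Capitals mark TTTGAA on either strand. Ube2c, a ubiquitin carrier of the anaphase-promoting complex, and Kif2c, a kinesin, were chosen after their values were seen, at -2.58 and -2.75 on the log2 scale.
Ube2c: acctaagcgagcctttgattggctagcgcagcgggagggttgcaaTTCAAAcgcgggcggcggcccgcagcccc
Kif2c: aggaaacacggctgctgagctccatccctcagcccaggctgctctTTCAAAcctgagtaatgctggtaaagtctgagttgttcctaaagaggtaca
They lie, in build GRCm38.p6, at chr2:164769855-164769928, plus strand (Ube2c) and at chr4:117178825-117178920, minus strand (Kif2c). The element was found in 29 of 36 mitosis promoters, in 4 of 29 replication promoters and in 12.2% of all tested promoters, and in 26% of promoters of genes called lower by more than 4-fold. The window is short and so is the element, and a match shows no binding. Antioxidant, sterol regulatory and kappa B elements were searched for too. For promoters of genes called higher, called lower and all tested, the antioxidant share was 15.1%, 15.1% and 14.9%. In the same order the sterol share was 0.336%, 0.429% and 0.512% and the kappa B share 0.48%, 0.19% and 0.389%. By list, the antioxidant element stood in 5 of 20 NRF2 target promoters. The sterol element stood in 1 of 19 cholesterol promoters and kappa B in 0 of 22 NF-kB promoters.

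Levels of ribosomal protein genes varied within each group along the axis of message length. Cytosolic ribosomal protein genes, whose messages are short, were called lower in 18 of 48 cases and higher in 0, with a median log2 fold change of -0.61. Their share of counts was 0.97, 1.1, 1.95 and 1.22% in Irgm1-KO libraries, against 1.35, 2.83, 1.9 and 1.7% in WT libraries. The groups overlapped, and the third Irgm1-KO and the second WT library, which were rich in short messages, were the highest of their groups. Rpl4 was called, at 417, 431, 456 and 421 CPM in Irgm1-KO and 594, 662, 638 and 615 CPM in WT, and Rps3, at 492, 523, 1255 and 616 CPM in Irgm1-KO and 578, 1976, 1037 and 852 CPM in WT, was not. The count of falls ran from 5 to 42 when 1 library was left out, with 5 without the first Irgm1-KO library, 7 without the second, the fourth or the second WT library, 10 without the fourth WT library, 28 without the first WT library and 42 without the third Irgm1-KO library. Eef1a1 and Eef2, the abundant elongation factor genes, fell by 0.71 and 0.67 on the log2 scale. Of 28 translation initiation and elongation genes 11 rose, Eif3c and Eif4e among them, and 4 fell. Ribosome biogenesis genes rose in 14 of 29 cases, with Npm1 among the 2 that fell and 1 lower without any single library other than the third Irgm1-KO or the first WT library. Protein-coding genes with a mean of at least 5 CPM were split by transcript length into 5 classes of equal size. From the shortest class to the longest, 18.5, 29.9, 27.6, 21.5 and 12.3% were called higher. In the same order 15.3, 19.6, 21.5, 23.2 and 20% were called lower. The share called higher was thus largest in the second class and did not fall steadily with length.

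**Figure D3:**
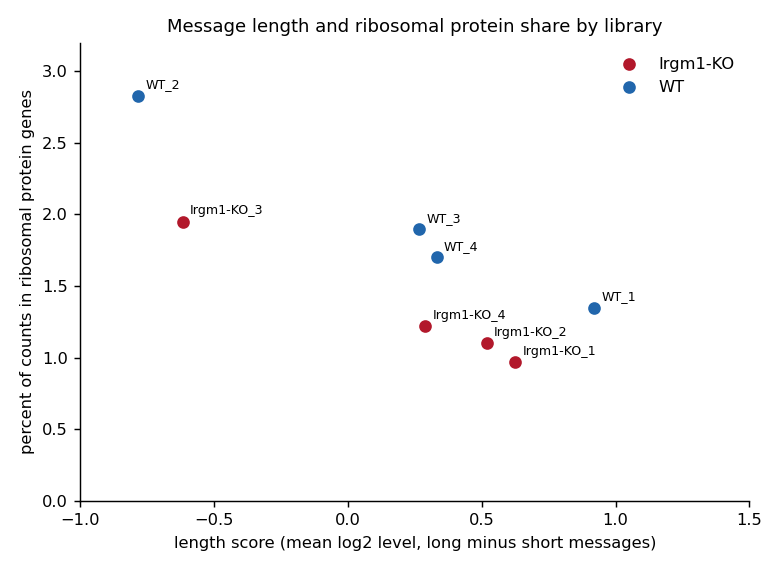
Length score of each library (mean log2 level of messages over 8000 bases minus those under 1000 bases) on the x axis and the percent of counts in cytosolic ribosomal protein genes on the y axis, for the 4 Irgm1-KO and the 4 WT libraries. Libraries with a low score hold a larger ribosomal share in both groups, and the third Irgm1-KO library and the second WT library stand at the low end.

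The same contrast in the second experiment gave most of these changes again. There 27.3% of 15429 genes rose and 26.1% fell, 53.4% in all. Of 2721 genes called higher in the first experiment and tested in the second, 2148 (78.9%) were called higher there and 20 lower, and of 2842 called lower 2148 (75.6%) were called lower and 32 higher. These were 53.9% and 56.2% of the genes the second experiment called higher and lower among those tested in both. Irgm1 had 1013, 1040, 1029 and 991 CPM in Irgm1KO_control libraries, against 1669, 1514, 1652 and 1577 CPM in WT_control libraries, again without overlap (log2 fold change -0.65, SE 0.0541, adjusted p = 5.26e-08). Apol9a was at 5.91 on the log2 scale, Oasl1 at 4.26, Hspa1b at 5.72 and Hpgd at -4.87. Of the lists, antiviral effectors rose in 34 of 38 cases, heat-shock chaperones in 19 of 20 and ATF4 targets in 25 of 32, and cholesterol synthesis genes fell in 21 of 26 and mitosis genes in 40 of 42. More subunits were called where folds were small: proteasome genes rose in 32 of 32 cases, mitochondrial ribosomal protein genes in 44 of 55 and nuclear respiratory chain genes in 28 of 48. In that experiment the length scores separated the genotypes, at 0.528 to 0.712 in Irgm1KO_control and 0.971 to 1.071 in WT_control, so there genotype and length cannot be told apart for these short messages.

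**Figure D4:**
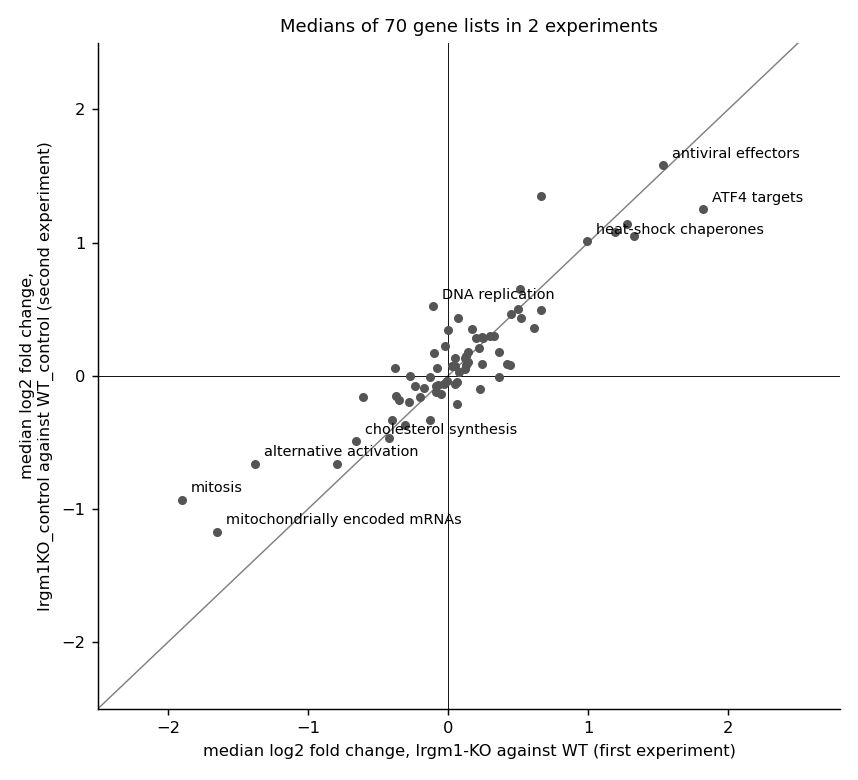
Median log2 fold change of each of 70 gene lists in the first experiment (Irgm1-KO against WT, x axis) and in the second (Irgm1KO_control against WT_control, y axis), with the diagonal drawn. Antiviral effectors and ATF4 targets lie high in both, mitosis genes and mitochondrially encoded mRNAs low in both, and the median of DNA replication genes is above 0 on the y axis and below 0 on the x axis.

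The difference between the 2 contrasts was itself tested in 1 fit over both tables. Of 14731 genes 344 (2.34%) were higher and 445 (3.02%) lower in the first experiment, 5.36% in all, so most genes were not called to differ, which does not show that they were alike. The count of higher genes was 652 without the third Irgm1-KO library, 549 without the first WT library, 227 without the fourth Irgm1-KO library and 229 without the third WT library. Cell cycle genes were called more often than that background: of 35 replication genes 20 were lower in the first experiment and 0 higher, and of 42 mitosis genes 32 were lower. Replication genes rose in 25 of 35 cases in the second experiment. Mcm5 was at -0.11 on the log2 scale in the first experiment against 0.87 in the second (difference -0.97, SE 0.199, adjusted p = 0.00805), and Ccne2, a cyclin of S phase entry, at -1.68 in the first against 0.99 in the second (adjusted p of the difference 0.000192). Mitosis genes fell in both, by more in the first: Kif20a was at -2.62 on the log2 scale in the first and -1.40 in the second (adjusted p of the difference 0.000795). Immediate-early genes differed too, with 10 of 25 lower in the first experiment, among them Nr4a1 and Egr3, and Fos and Myc, named after their values were seen, at -0.36 and -0.74 in the first and 1.55 and 0.97 in the second. The fall of Fos in the first experiment was not called without the fourth Irgm1-KO or the first WT library.

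**Figure D5:**
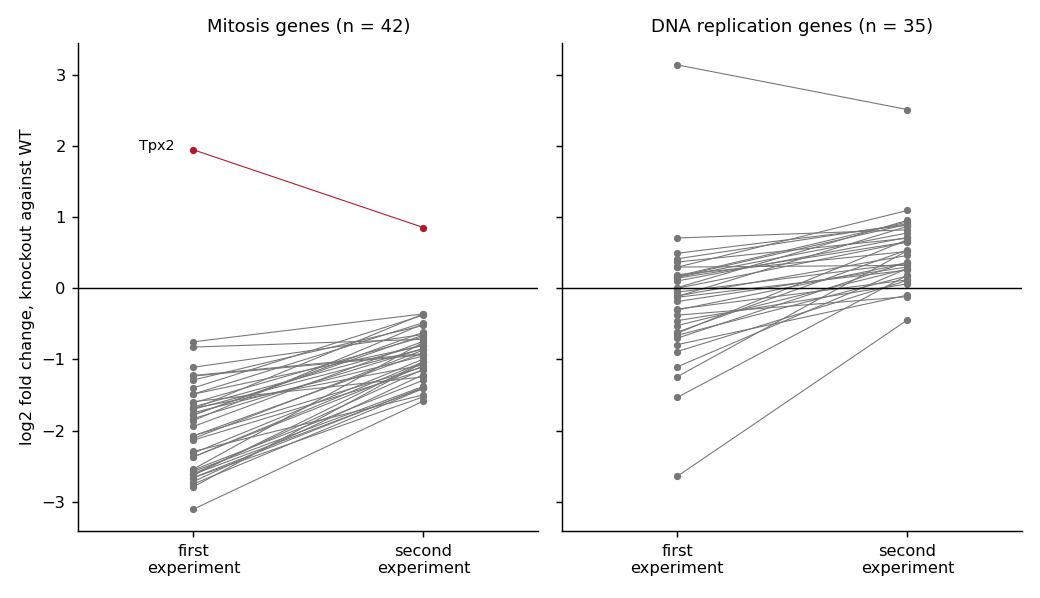
Log2 fold change of each tested mitosis gene (left panel) and DNA replication gene (right panel) in the first experiment (Irgm1-KO against WT) and in the second (Irgm1KO_control against WT_control), with a line joining the same gene. Mitosis genes other than Tpx2 lie below 0 in the first experiment, and most replication genes lie higher in the second than in the first.

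Several acute-phase and immune genes were higher in the first experiment. Saa3, an acute-phase gene, had 104, 112, 190 and 147 CPM in Irgm1-KO libraries, against 7.7, 10.1, 8.6 and 8.16 CPM in WT libraries. It rose without overlap by 4.00 on the log2 scale, against 1.30 in the second experiment (adjusted p of the difference 0.000181). Nos2 (4.08 and 2.11 in the first and second), Acod1 (2.42 and 0.64), Cxcl9 (1.87 and 0.54) and C3 (2.40 and 1.00) were called to differ, with adjusted p of 0.00236, 2.93e-05, 0.000785 and 0.00381. Of 26 NRF2 targets 8 were higher in the first experiment and 0 lower, and of 26 NF-kB genes 6 and 0. Mertk was called higher in the first (0.82) and lower in the second (-0.57, adjusted p of the difference 0.00221). Mmp14, a membrane matrix metalloprotease (1.99 and -1.10), Cd38 (2.49 and 0.45), Clec4n, Rilpl1 and Plpp1 were the other genes furthest higher in the first, and Ocstamp (0.97 and 3.28), Id1, Notch4, Esco2 and Pbk the furthest lower.

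In the Irgm_IFNAR-KO libraries of the first experiment, which share the WT libraries with the comparison above, Irf7 stood at 28.7 ± 3.02 CPM, Rsad2 at 40.3 ± 4.35 and Asns at 20.9 ± 2.73 CPM, against 2457 ± 362, 1991 ± 140 and 81.3 ± 3.76 CPM in Irgm1-KO. Saa3 stood at 137 ± 70.7 CPM in Irgm_IFNAR-KO and 138 ± 39.2 CPM in Irgm1-KO, and Hspa1b at 11.4 ± 1.35 CPM in Irgm_IFNAR-KO and 41.2 ± 10.8 CPM in Irgm1-KO (SD, n = 4 each). The WT levels given above were higher than those of Irgm_IFNAR-KO for Irf7 and Rsad2, and lower for Asns, Saa3 and Hspa1b. These levels are given without a test.

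By chromosome, the share of genes called higher ran from 15.3% to 24.2% on the 19 autosomes and was 12.7% of 441 genes on the X, where 30.4% were called lower. In the second experiment 20.3% of 478 X-linked genes were called higher and 30.1% lower. The X-inactivation transcript Xist, named after its values were seen, had 230, 165, 97.9 and 120 CPM in Irgm1-KO libraries and 231, 50.8, 127 and 126 CPM in WT libraries, with overlap. In the second experiment it had 73.2, 143, 1.31 and 103 CPM in Irgm1KO_control and 50.2, 1.78, 110 and 0.00843 CPM in WT_control, so the libraries of each genotype there held very unequal levels.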

How the data were processed

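Poly(A)-enriched RNA of bone marrow-derived macrophages was sequenced, with 100 cycles in the first experiment and 50 in the second. The authors deposited a table of whole-number counts per gene for each experiment. The submitters' processing notes name fastp, STAR, DESeq2 and build GRCm39, with no versions, and neither a counter nor its strand setting nor its rule for reads that match several genes is given in the sources used here. Near-identical copies and overlapping or antisense genes are therefore uncertain. The table of the first experiment holds no gene whose highest count is under 10.

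Counts were tested with edgeR 4.0.16 in R 4.3.3 (filterByExpr with a minimum count of 10 and a minimum total of 15, TMM scaling, robust quasi-likelihood test, Benjamini-Hochberg adjustment over all tested genes, threshold 0.05), with the 12 libraries of the experiment in 1 fit. The fold is 2 to the power of the fitted log2 fold change, and CPM values use TMM-scaled totals. DESeq2 1.42.0 was an alternative. The depth of 48.7 to 70.5 M counts per library leaves counting error small beside the spread between libraries for genes of moderate or high level. Very low values, such as those of Ifnb1 in WT and Hpgd in Irgm1-KO, rest on few reads per library, and there counting error is not small. On simulated counts for this comparison, over 13998 genes, 32.8% of 1.5-fold, 68.7% of 2-fold and 97% of 4-fold changes were recovered. There 13798 genes were left unchanged. The adjusted threshold was thus stricter than in the data, where 40.4% of genes were called. Recovery under a spread shared between genes, such as that along message length in the data, was not tested. Within Irgm1-KO and within WT, no 2 libraries agreed within sampling noise.

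Genes were named from a set fixed by rule, which held 503 genes. It took Irgm1, Ifnar1 and Ifnb1, the 15 largest rises and falls at 5 CPM or more without overlap, and the 10 largest CPM gains and losses. For each of 70 gene lists it took up to 3 called members in each direction by smallest p and up to 2 of the most abundant not called. The 6 largest rises and falls of the second experiment and the 6 genes with the largest differences between experiments in each direction were added. The text names 249 genes tested in the first experiment, some of them outside the set. Which genes of the set are named was not fixed by rule. The members, lists and tests were chosen with earlier results of these data known. Gene names and chromosomes come from an annotation of build GRCm38, so no gene coordinates are given beyond the printed promoters. The labels do not say which animal gave which library, so replicate numbers were not read as pairs.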

Additional observations from a re-analysis of the deposited data

Results flagged for a closer look

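In 7 of the 80 groups of 4 values examined, 1 library stood apart from the other 3 by more than Dixon's 95% critical value, and chance flags about 1 in 20 groups. The third Irgm1-KO library was the one in 4 of them, at 3.79 CPM of Ifnb1, 2996 CPM of Irf7, 1577 CPM of Isg15 and 1255 CPM of Rps3, each the highest of its group. This is the Irgm1-KO library richest in short messages, and the part of message length in these values was not tested. The first Irgm1-KO library stood apart on the low side with 177 CPM of Il4ra, the second on the high side with 5.42 CPM of Kif20a, and the second WT library on the high side with 0.217 CPM of Ifnb1. The Ifnb1 values in WT rest on few reads per library.

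The genotype contrast of 23 named genes differed between the first and the second experiment in edgeR's quasi-likelihood test of the difference. The log2 fold change was higher in the first experiment by 2.72 for Saa3, 3.10 for Mmp14, 2.07 for Clec4n, 2.05 for Cd38, 2.05 for Rilpl1, 2.01 for Plpp1, 1.98 for Nos2, 1.79 for Acod1, 1.34 for Cxcl9, 1.42 for C3 and 1.40 for Mertk. The differences of the genes lower in the first experiment were -2.30 for Ocstamp, -3.19 for Id1, -2.81 for Notch4, -2.65 for Ccne2, -2.43 for Esco2, -2.28 for Pbk, -0.97 for Mcm5, -1.20 for Kif20a, -1.75 for Nr4a1, -1.99 for Egr3, -1.89 for Fos and -1.70 for Myc. Adjusted p-values ran from 9.52e-06 for Esco2 and Rilpl1 to 0.00805 for Mcm5. The experiments differ in read cycles, depth and table, and these cannot be told apart from the difference. They differ too in the Xist levels given above and in length scores, which separated the genotypes only in the second experiment. With log2 Xist as a covariate 346 genes were higher and 443 lower in the difference, and with the length score 1371 and 1198. The cause of the difference was not tested.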

How the results depend on the processing

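Irgm1 stayed lower and past the threshold under each alternative run, with log2 fold changes of -0.82 to -0.68 when 1 library was left out. Of 209 called genes named in the text, none changed sign; Ifnar2 lost its call with library totals and no scaling factor, Fos without the fourth Irgm1-KO or the first WT library, and Fos and Id1 without the 3 libraries below. In the first experiment, leaving out 1 library gave 2371 to 2942 genes higher and 2433 to 3143 lower. With the replicate number as a block (replicate block) 2599 were higher and 2639 lower. Same-numbered deviations correlated at 0.85, -0.84, -0.04 and 0.26. Because 88.7% of the variance inside groups lay along the component that followed transcript length, these correlations cannot show whether the numbers pair the libraries. A log2 Xist covariate gave 4267 higher and 4208 lower. In Irgm1-KO and in WT alike, Xist was highest in the library with the highest length score and lowest in that with the lowest. In these libraries the Xist covariate and the length score thus cannot be told apart. The other planned scalings, filters, DESeq2 and the 8-library fit kept both counts within 1.5 times. Chosen after seeing the data, the length score as a covariate gave 4639 higher and 4780 lower, and leaving out the third Irgm1-KO and the first and second WT libraries gave 3321 and 3106. Without these 3 libraries 33 antiviral effectors, 18 heat-shock chaperones and 18 proteasome genes were higher and 41 mitosis and 40 ribosomal protein genes lower, and ribosomal protein genes lower numbered 47 with the length score.

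In the second experiment leaving out 1 library gave 3943 to 4058 higher and 3653 to 3897 lower, and the length score left 25 mitosis genes lower. The difference between experiments depended more on the settings. Higher and lower genes numbered 578 and 701 with DESeq2, 168 and 264 with the replicate block, and 1371 and 1198 with the length score, and ran from 227 to 652 and from 348 to 649 when 1 library was left out. The 23 named difference genes kept their calls in all of these. The cause of these shifts was not tested. In a window of 150 bases before the start, the interferon core stood in 5.71% of genes called higher, 2.9% called lower and 3.72% of all. With the most abundant gene left out of the totals, the ratio of Irgm1-KO to WT shares of counts moved by less than its spread in each of the 70 lists, but the shares moved by more than their SD in 22 lists in Irgm1-KO and 35 in WT. In the simulated counts, where nearly all genes were unchanged, most 1.5-fold changes were missed. The share missed in the data, where many more genes were called and the spread inside groups mostly followed message length, was not measured.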
